A study of Homo sapiens with 4 samples.

Results

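The 10 circadian clock genes described here are CLOCK, ARNTL (now named BMAL1), PER1, PER2, PER3, CRY1, CRY2, NR1D1, NR1D2 and TEF. They were chosen by name, as the entries of the count tables that carry these symbols, and each was found in a single entry in every table, so 10 of the 29655 distinct gene names are covered. RNA-seq was run on UMSCC74B, a cell line derived from a squamous carcinoma of the head and neck. The control group holds 2 libraries (genotype WT, control shRNA), and 2 further libraries are labelled PRMT5 KD (genotype PRMT5 KD, PRMT5 shRNA, where PRMT5 is an arginine methyltransferase). All were collected 72 h after the shRNA was given, from unselected bulk cultures of this single line. The labels describe transfected plasmids and the methods of the study describe lentiviral particles. Nothing states that the libraries of a group came from separate cultures, so p-values measure the spread between these libraries, which may be technical. The labels and methods give no time of day and describe no step that aligns the clocks of the cells, so each library is a single reading over a population whose clock phase is not known.

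The circadian clock is a transcriptional loop that runs in most cell types. CLOCK and ARNTL form a dimer that binds E-box sequences and drives the PER and CRY genes, whose proteins return to the nucleus and repress that dimer. NR1D1 and NR1D2 (REV-ERB alpha and beta), also driven through E-boxes, are nuclear receptors that repress ARNTL through the elements that ROR receptors activate. TEF, DBP and HLF are related activators that bind D-box sequences, where NFIL3 acts as a repressor, so the loop sends its output through a further layer of transcription factors.

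The binding sequences that define these layers were looked up in the promoters of the members, in RefSeq windows on GRCh38.p14 that run from 250 bases before to 50 bases after each annotated start. All 10 members matched, with 16 windows among them. The searched letters, on both strands, were CACGTG (E-box), CACGTT (E-prime box, a weaker form), TTATGTAA or TTACGTAA (D-box), TAGGTCA or TGGGTCA (core of the ROR element) and TGACGTCA (cAMP element). The lines below are shown as examples of each kind of element found among the members, with the match in capitals and each sequence on the strand of its gene.
PER1 E-box, chr17:8152561-8152588, minus strand: gcacccaggtcCACGTGcgcccgtgtgt
NR1D2 E-box, chr3:23945955-23945982, plus strand: gcgggcggggaCACGTGaggccgctcgg
TEF E-box, chr22:41367249-41367276, plus strand: cgcgacagctcCACGTGctgcagctggc
CRY1 E-prime box, chr12:107093622-107093649, minus strand: cacacttcagaAACGTGaggtgccggtg
NR1D1 E-prime box, chr17:40100741-40100768, minus strand: cgcaagagctcAACGTGccggctgttgg
PER2 E-prime box, chr2:238288791-238288818, minus strand: gcgcgcgcggtCACGTTttccactatgt
PER2 D-box, chr2:238288595-238288624, minus strand: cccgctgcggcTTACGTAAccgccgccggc
PER3 D-box, chr1:7784103-7784132, plus strand: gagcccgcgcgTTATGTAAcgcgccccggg
NR1D2 D-box, chr3:23945916-23945945, plus strand: gtgacgcggcaTTACATAAtgggcgctgag
ARNTL ROR element core, chr11:13277809-13277837, plus strand: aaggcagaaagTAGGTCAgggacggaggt

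An E-box was present in the windows of 3 members, PER1, NR1D2 and TEF, and in 4 of the 16 windows, against 7.26% of all 35116 promoter windows. NR1D2 held a second copy in the same window, and 2 windows of TEF each held a copy. An E-prime box was present for 5 members (CLOCK, PER2, CRY1, CRY2 and NR1D1), in 5 of the 16 windows, against 5.34% of all windows. A D-box was present for 3 members (PER2, PER3 and NR1D2), in 3 of the 16 windows, against 1.01% of all windows. The core of the ROR element was present for 4 members (CLOCK, ARNTL, CRY2 and NR1D2), in 4 of the 16 windows, against 5.69% of all windows. No member window held the cAMP element, which 1.85% of all windows held. No E-box match was also counted as an E-prime box. These matches describe the letters of the windows and not the occupancy of a site.

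The libraries held between 52185289 and 65964558 counts on named genes, of which 22875 to 27424 fell on the 10 members. Counts on rRNA made up 15.3% and 14.2% in control and 26.2% and 18.0% with the PRMT5 KD label. PRMT5 itself was higher with the PRMT5 KD label, at 132 and 149 CPM against 94.2 and 84.2 CPM (edgeR log2 fold change 0.66, SE 0.12, FDR = 0.00548), so the RNA of the targeted gene went against the label, and directions below follow the labels of the libraries. The labels also name quantitative PCR and immunoblot checks of PRMT5, which were not analysed here. Without control replicate 2 that call was lost (0.58, FDR = 0.0677). Of 8 squamous epithelial markers, KRT5, KRT14, KRT6A and CDH1 stayed under 0.5 CPM in every library. These defining markers of the labelled cell type were thus absent or nearly so. The 3 markers tested (TP63, DSG3 and ITGB4) were lower with the PRMT5 KD label. TP63 (0.736 and 0.881 RPKM) and ITGB4 (0.706 and 0.969 RPKM) reached the 0.5 RPKM needed for testing in control only. The filter thus favoured a lower result for TP63 and ITGB4, which is no evidence of direction. KRT17, not tested, was at 0.126 and 0.120 CPM in control and at 1.11 and 1.48 CPM with the PRMT5 KD label. KRT14 was at 0 in both controls and at 0.231 and 0.460 CPM with the PRMT5 KD label. The 8 summed to 53.6 and 49.8 CPM in control and 22.6 and 31.1 CPM with the PRMT5 KD label. All 4 fibroblast markers were lower, with a summed level of 494 and 540 CPM in control and 71.9 and 84.7 CPM with the PRMT5 KD label. The 3 endothelial markers summed to 10.1 and 14.0 CPM in control and 1.01 and 0.460 CPM with the PRMT5 KD label. The 3 leukocyte markers summed to 94.6 and 113 CPM in control and 152 and 169 CPM with the PRMT5 KD label, with CD3E at 0, PTPRC near 0 and CD68 higher. The part of these differences in the results on the clock genes was not tested. In bulk libraries, fewer cells of a type and less RNA per cell cannot be told apart.

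CPM are counts relative to the summed counts of the 11905 genes tested, after TMM scaling, on the usual CPM scale. That sum ran from 41888956 in control replicate 1 to 53584061 in control replicate 2. Counts on rRNA and on other genes not tested lie outside it. SDs are taken over the 2 libraries of a group. The question was how the clock genes stood in libraries labelled PRMT5 KD against control. All 10 members passed the filter on low values. The threshold for a call was an FDR below 0.05 together with a log2 fold change of 0.5 or more in either direction. Of the 10 members, 2 were called, CLOCK and PER3, both lower, beside 45.5% of the 11905 protein-coding genes tested. No member was called higher, beside 21.2% of all genes, and 2 were called lower, beside 24.3% of all genes. CRY2 and NR1D2 passed the FDR with a smaller increase, ARNTL passed the fold change threshold and not the FDR, and the remaining 5 members passed neither. The groups did not overlap for 7 of the 10 members, beside 80.5% of all genes. The median log2 fold change of the members was -0.10, with 4 above and 6 below 0, and their median absolute log2 fold change was 0.40. Over all genes tested the corresponding values were -0.01 and 0.49.

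**Figure D1:**
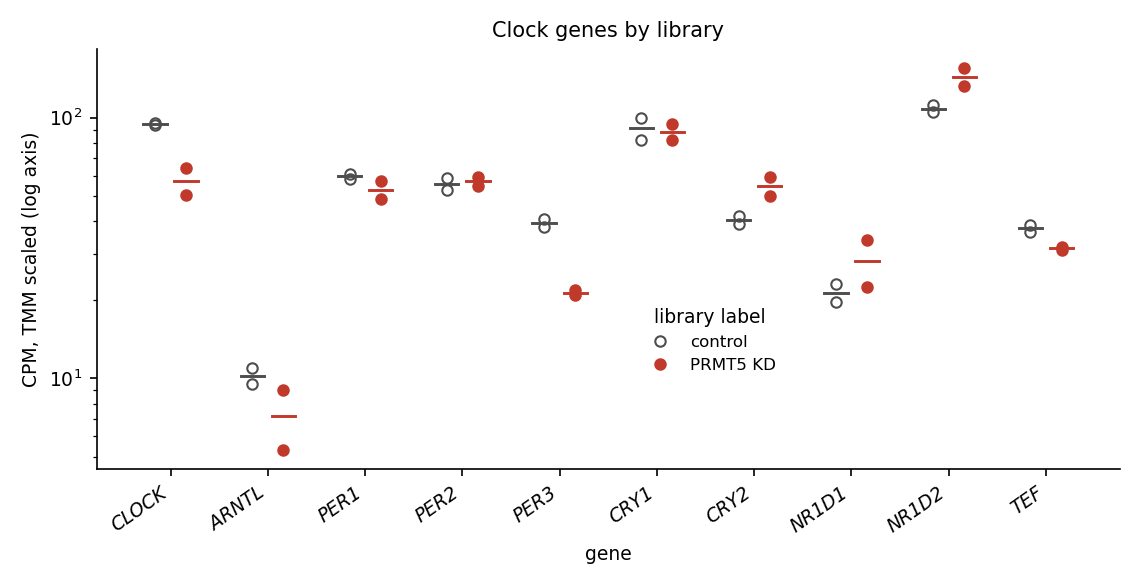
CPM (log axis) of the 10 clock genes in each library, open grey circles for control and filled red circles for PRMT5 KD, with a short line at each group mean (n = 2). PER3 and CLOCK lie lower in both libraries labelled PRMT5 KD, PER2, CRY1 and NR1D1 overlap between groups, and ARNTL is the least abundant, at 5.33 to 10.9 CPM.

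The activators were examined first. CLOCK, a histone acetyltransferase and the DNA-binding partner of ARNTL, lies on the minus strand of chromosome 4, positions 55427903 to 55546909 of GRCh38, the build of all positions given here. Control libraries showed 95.8 and 94.0 CPM of CLOCK against 64.3 and 50.5 CPM with the PRMT5 KD label. Both libraries labelled PRMT5 KD were thus below both controls, and the control values were close to each other. The means were 94.9 ± 1.32 CPM (SD, n = 2) and 57.4 ± 9.74 CPM (SD, n = 2), a log2 fold change of -0.73 (95% interval -1.07 to -0.38, FDR = 0.00639 from edgeR). The call was lost when either control library was left out (FDR = 0.0521 without control replicate 1 and 0.0545 without control replicate 2), while the log2 fold change remained at -0.71 and -0.74. Over the 14 alternative fits the log2 fold change of CLOCK ran from -0.87 (without PRMT5 KD replicate 1) to -0.54 (corrected for exon length and GC). Exons of CLOCK share 76 bases, 0.659% of its exon length, with TMEM165 on the opposite strand. TMEM165 had a log2 fold change of -0.59 (FDR = 0.00626).

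ARNTL, the other subunit of the activating dimer, lies on the plus strand of chromosome 11 from 13276652 to 13387266. It had 433 and 477 counts in control and 430 and 255 with the PRMT5 KD label, or 10.9 and 9.53 CPM against 9.03 and 5.33 CPM. The groups did not overlap, but the libraries labelled PRMT5 KD differed from each other more than PRMT5 KD replicate 1 differed from control. The log2 fold change was -0.51 (95% interval -1.16 to 0.14, FDR = 0.153), so a decrease was not established. Without PRMT5 KD replicate 1 it was -0.90 (FDR = 0.00434), and without PRMT5 KD replicate 2 it was -0.17. Fits that leave out a library have a lone library in that group, which is assumed to vary as the other group's pair does.

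Of the 5 repressors, 1 was called, beside 45.5% of all genes. PER3, the PERIOD protein regarded as least required for rhythm in the loop, was that gene. It lies on the plus strand of chromosome 1 from 7784291 to 7845177 and its counts were 1508 and 2052 in control, beside 994 and 1042 for PRMT5 KD. In CPM the values were 38.1 and 41.0 against 20.9 and 21.8, with replicates close together and the groups well apart. PER3 fell to 0.539 of its control level, from 39.5 ± 2.06 to 21.3 ± 0.641 CPM (SD, n = 2 each). The edgeR log2 fold change was -0.89 (95% interval -1.18 to -0.60, FDR = 0.00161). It was called under all 14 alternative fits, from -0.94 to -0.71. Exons of PER3 share 868 bases with UTS2 on the opposite strand, and UTS2 had 0 counts in all 4 libraries. Long noncoding RNA genes without a symbol, on the opposite strand, share 482 bases with exons of PER3, 421 of ARNTL, 188 of PER2 and 94 of CRY1. A protein-coding gene without a symbol shares 30 bases with exons of PER1 on the same strand. The counts of these genes were not examined.

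PER1 and PER2, the PERIOD proteins that carry most of the negative feedback, had log2 fold changes near 0. PER1, on the minus strand of chromosome 17 from 8140472 to 8156506, had 61.1 and 58.1 CPM in control and 57.1 and 48.9 CPM with the PRMT5 KD label. Its groups were apart by a margin smaller than the gap between the libraries labelled PRMT5 KD. The log2 fold change was -0.17 (95% interval -0.47 to 0.13, FDR = 0.280). Its exons hold the microRNA gene MIR6883, which had 0 counts. PER2, on the minus strand of chromosome 2 from 238244044 to 238290102, had 58.7 and 52.8 CPM in control and 59.3 and 54.9 CPM with the PRMT5 KD label, and the groups overlapped. Its log2 fold change was 0.03 (95% interval -0.25 to 0.31, FDR = 0.826). Given the spread between these libraries, a change of more than about 0.31 in either direction lay outside the interval.

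CRY1 and CRY2, the cryptochromes that block the CLOCK and ARNTL dimer directly, are given next, and the difference between their fold changes was not tested. CRY1, on the minus strand of chromosome 12 from 106991364 to 107093549, had 99.6 and 82.4 CPM in control and 94.6 and 82.4 CPM with the PRMT5 KD label, with a log2 fold change of -0.04 (95% interval -0.38 to 0.30, FDR = 0.826). Its groups covered nearly the same range. CRY2, on the plus strand of chromosome 11 from 45847118 to 45883248, had 41.9 and 39.0 CPM in control and 50.1 and 59.3 CPM with the PRMT5 KD label. Both libraries labelled PRMT5 KD were above both controls, and the means were 40.4 ± 2.04 and 54.7 ± 6.54 CPM (SD, n = 2 each). The log2 fold change of 0.44 (95% interval 0.13 to 0.75, FDR = 0.0286) passed the FDR and not the fold change threshold. It passed both in 5 of the 14 alternative fits, among them total counts alone (0.62) and the fit corrected for exon length and GC (0.51), and it missed the FDR in 4, which were the fit with the replicate number as a block (FDR = 0.0634) and those without control replicate 1, control replicate 2 or PRMT5 KD replicate 2 (FDR = 0.110, 0.182 and 0.0784).

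The REV-ERB receptors had nearly equal fold changes and unequal precision. NR1D2, the more abundant of the pair, lies on the plus strand of chromosome 3 from 23945286 to 23980617 and had 112 and 105 CPM in control against 155 and 132 CPM with the PRMT5 KD label. All PRMT5 KD values were above all control values, and the log2 fold change was 0.40 (95% interval 0.11 to 0.70, FDR = 0.0321), past the FDR and under the fold change threshold. It missed the FDR in 5 of the 14 alternative fits, among them the correction for exon length and GC (0.33, FDR = 0.0695). NR1D1, on the minus strand of chromosome 17 from 40092793 to 40100589, had 23.0 and 19.6 CPM in control and 34.0 and 22.4 CPM with the PRMT5 KD label. Here PRMT5 KD replicate 2 fell within the control range and PRMT5 KD replicate 1 lay above it. The log2 fold change was 0.40 (95% interval -0.13 to 0.94, FDR = 0.166), and it was 0.11 without PRMT5 KD replicate 1 and 0.68 (FDR = 0.00363) without PRMT5 KD replicate 2. Exons of NR1D1 share 473 bases, 18.0% of its exon length, with THRA on the opposite strand. THRA, the thyroid hormone receptor alpha gene, had 18.6 and 20.2 CPM in control and 12.9 and 14.9 CPM with the PRMT5 KD label (log2 fold change -0.48, FDR = 0.0292), the direction opposite to NR1D1. The library kit keeps strand, but whether the counting used it is not stated in the sources used here, so the division of reads between NR1D1 and THRA is uncertain.

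TEF, a proline and acidic amino acid-rich leucine zipper activator of D-box genes, lies on the plus strand of chromosome 22 from 41367333 to 41399326. It had 36.4 and 38.9 CPM in control and 31.9 and 31.1 CPM with the PRMT5 KD label. Both groups were tight and did not overlap, but the difference was small. The log2 fold change of -0.26 (95% interval -0.53 to 0.02, FDR = 0.0988) did not pass the FDR.

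**Figure D2:**
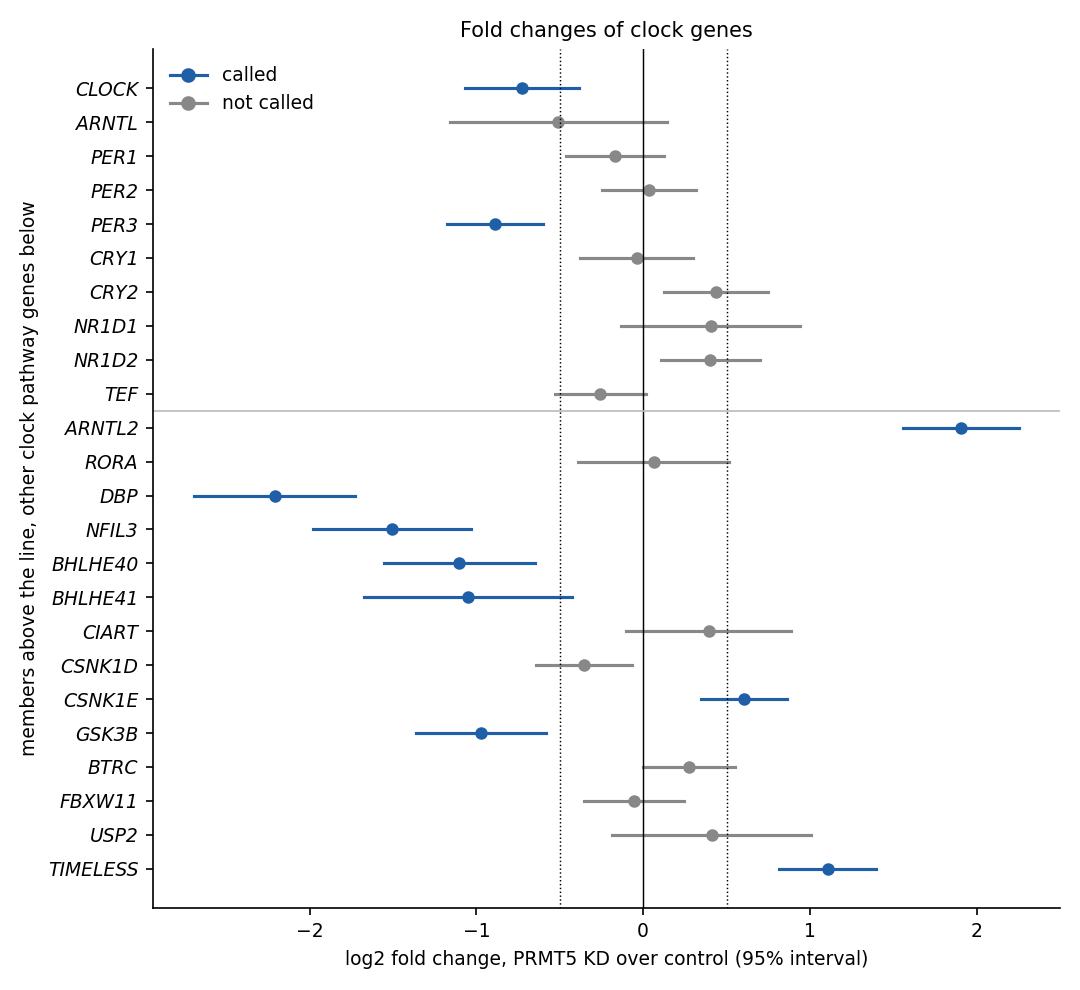
Log2 fold change of PRMT5 KD over control (point) with its 95% interval (line) for the 10 clock genes above the grey line and the 14 tested pathway genes below it, blue where called and grey where not. Dotted lines mark the fold change threshold of 0.5 either way, and the members lie between -0.89 and 0.44 while the pathway genes run from -2.21 to 1.90.

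The order of the members by level was compared per kilobase of exon (RPKM with TMM scaling). In control, CRY1 (19.0 ± 2.56 RPKM, SD, n = 2) and NR1D2 (18.7 ± 0.813 RPKM) were the most abundant, and their ranges overlapped. PER1, CLOCK, NR1D1, TEF and PER2 followed at means between 7.87 and 8.51 RPKM, and each overlapped the next in that order. CRY2 (6.52 RPKM), PER3 (4.86 RPKM) and ARNTL (1.47 RPKM) were lower, with no overlap between neighbours. With the PRMT5 KD label, NR1D2 (24.8 ± 2.73 RPKM) stood above CRY1 (18.5 ± 1.81 RPKM) with no overlap. NR1D1, CRY2, PER2 and PER1 formed an overlapping middle group at means from 10.7 to 7.57 RPKM. CLOCK, in the middle group of the control order, was at 4.98 RPKM, below TEF, with PER3 (2.62 RPKM) and ARNTL (1.04 RPKM) below it. ARNTL was the least abundant member in every library.

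Ratios between related genes were also read within each library, where library size cancels. Shared exons, isoforms and annotated exon length enter these ratios as they enter RPKM. The ratio of CRY1 to CRY2 counts per kilobase was 3.09 and 2.74 in control and 2.45 and 1.80 with the PRMT5 KD label. The ratio of NR1D1 to NR1D2 was 0.453 and 0.411 in control and 0.484 and 0.372 with the PRMT5 KD label, so the control values lay inside the PRMT5 KD range. PER1 to PER2 was close to even in every library, from 0.902 to 1.11. PER1 to PER3, a pair added to those first planned, was 1.86 and 1.65 in control. It was 3.17 and 2.61 with the PRMT5 KD label, where both values lay above control. With 2 libraries against 2, an exact permutation test of a ratio cannot reach 0.05, so these ratios are given as values.

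**Figure D3:**
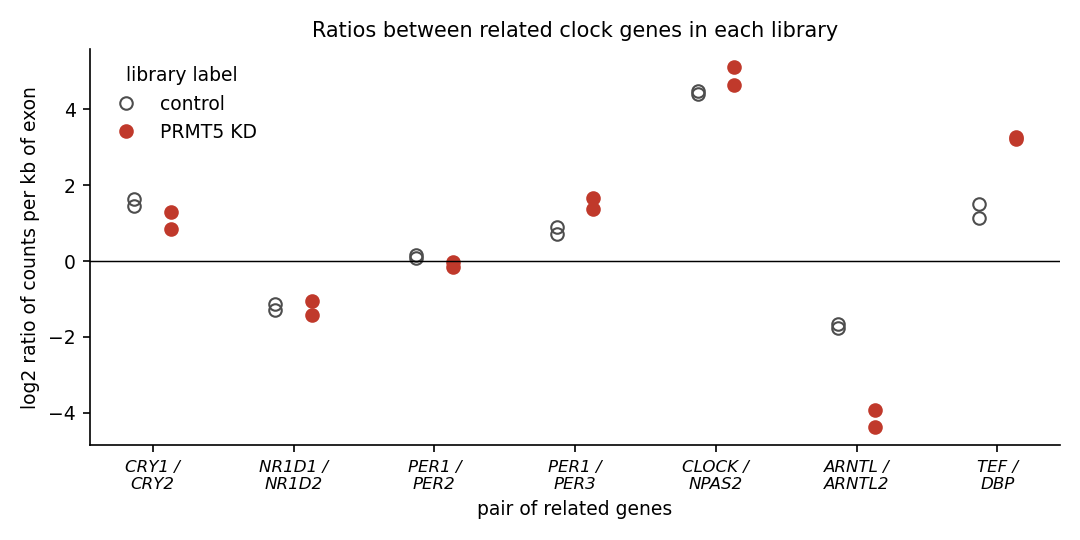
Log2 ratio of counts per kilobase of exon for 7 pairs of related clock genes in each library, open grey circles for control and filled red circles for PRMT5 KD. The pair ARNTL over ARNTL2 lies furthest apart, at -1.65 and -1.75 in control and -3.93 and -4.37 with the PRMT5 KD label, and NR1D1 over NR1D2 overlaps between groups.

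The other clock pathway genes were then counted from a list of 18 genes, of which 14 passed the filter. Of these, 8 were called, 3 higher and 5 lower, beside 45.5% of all genes called, 21.2% higher and 24.3% lower. The median absolute log2 fold change of the list was 0.79, beside 0.49 over all genes. The members and these genes came from the same 4 libraries. Among paralogs of the activators, ARNTL2 (now named BMAL2), which can pair with CLOCK in place of ARNTL, had 1371 and 1623 counts in control and 6636 and 5327 with the PRMT5 KD label. This was 34.6 and 32.4 CPM against 139 and 111 CPM, with both PRMT5 KD values above both controls. ARNTL2 was 3.74-fold higher, a log2 fold change of 1.90 (95% interval 1.56 to 2.25, FDR = 0.000342 from edgeR), and it was called under all 14 alternative fits. Per kilobase, ARNTL stood at 0.319 and 0.297 of ARNTL2 in control and at 0.0654 and 0.0483 with the PRMT5 KD label. NPAS2, the paralog of CLOCK, was scarce at 186 and 242 counts in control and 134 and 76 with the PRMT5 KD label, and it failed the filter. Under the count filter of edgeR it had a log2 fold change of -1.05 (FDR = 0.0272). CLOCK to NPAS2 per kilobase was 22.1 and 21.1 in control and 24.8 and 34.5 with the PRMT5 KD label.

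Beside TEF, which was not called, the output layer had 2 tested factors, DBP and NFIL3. Both were called lower, beside 24.3% of all genes. DBP, the D-box activator most closely tied to E-box drive, had 705 and 1229 counts in control and 225 and 212 with the PRMT5 KD label, or 17.8 and 24.5 CPM against 4.72 and 4.43 CPM. It fell to 0.216 of its control level, a log2 fold change of -2.21 (95% interval -2.69 to -1.73, FDR = 0.000511). TEF to DBP per kilobase, also a pair added to those first planned, was 2.82 and 2.18 in control and 9.32 and 9.69 with the PRMT5 KD label. NFIL3, the D-box repressor, had 49.9 and 40.6 CPM in control and 18.4 and 13.4 CPM with the PRMT5 KD label, a log2 fold change of -1.51 (FDR = 0.00155). HLF, the third activator of this family, failed the filter with 79 to 125 counts per library. Under the count filter of edgeR, HLF had a log2 fold change of 0.12 (FDR = 0.746). DBP and NFIL3, which act in opposite directions at D-boxes, thus both fell.

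The E-box repressors BHLHE40 and BHLHE41 (DEC1 and DEC2), which compete with the CLOCK and ARNTL dimer for E-boxes, were lower as well. They were 2 of the 3 E-box repressors listed, beside 24.3% of all genes called lower. BHLHE40 had 168 and 189 CPM in control and 97.8 and 68.6 CPM with the PRMT5 KD label (log2 fold change -1.10, FDR = 0.00401). BHLHE41 had 8.40 and 12.02 CPM in control and 5.77 and 4.12 CPM with the PRMT5 KD label (-1.05, FDR = 0.0152), and without control replicate 2 its call was lost (-0.76, FDR = 0.138). CIART, a further repressor of the dimer that is listed as C1orf51, had 4.44 and 4.33 CPM in control and 5.19 and 6.33 CPM with the PRMT5 KD label, with no call (0.39, FDR = 0.149).

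RORA, a ROR receptor, of the kind that activates ARNTL and opposes the REV-ERB receptors, had 40.9 and 45.1 CPM in control and 53.0 and 36.9 CPM with the PRMT5 KD label, with overlapping groups (log2 fold change 0.06, FDR = 0.793). Corrected for exon length and GC its log2 fold change was 0.38 (FDR = 0.122). Its level spread more within the libraries labelled PRMT5 KD than between the group means. RORB failed the filter with 47 to 55 counts. Under the count filter of edgeR, RORB had a log2 fold change of 0.01 (FDR = 0.980).

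Of 7 genes listed under PER and CRY turnover, 6 were tested and 2 were called, beside 45.5% of all genes. CSNK1E (casein kinase 1 epsilon), which phosphorylates PER proteins, had 97.7 and 102 CPM in control and 156 and 148 CPM with the PRMT5 KD label (log2 fold change 0.61, FDR = 0.00440). Without control replicate 1 its call was lost (0.57, FDR = 0.0508). GSK3B, a kinase that acts on several clock proteins, had 285 and 289 CPM in control and 167 and 125 CPM with the PRMT5 KD label (-0.97, FDR = 0.00350). CSNK1D, the other PER kinase, passed the FDR and not the fold change threshold (-0.35, FDR = 0.0447), with the sign opposite to CSNK1E. It missed the FDR in 11 of the 14 alternative fits, and corrected for exon length and GC its log2 fold change was -0.017 (FDR = 0.915). BTRC and FBXW11, the ligase subunits for PER proteins, were not called (0.28 and -0.06), nor was USP2 (0.41). FBXL21, which the gene annotation lists under the pseudogene name FBXL21P, had 0 counts in every library. TIMELESS, a replication fork protein that also binds clock proteins, had 55.5 and 48.1 CPM in control and 109 and 114 CPM with the PRMT5 KD label (1.11, FDR = 0.000817).

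**Figure D4:**
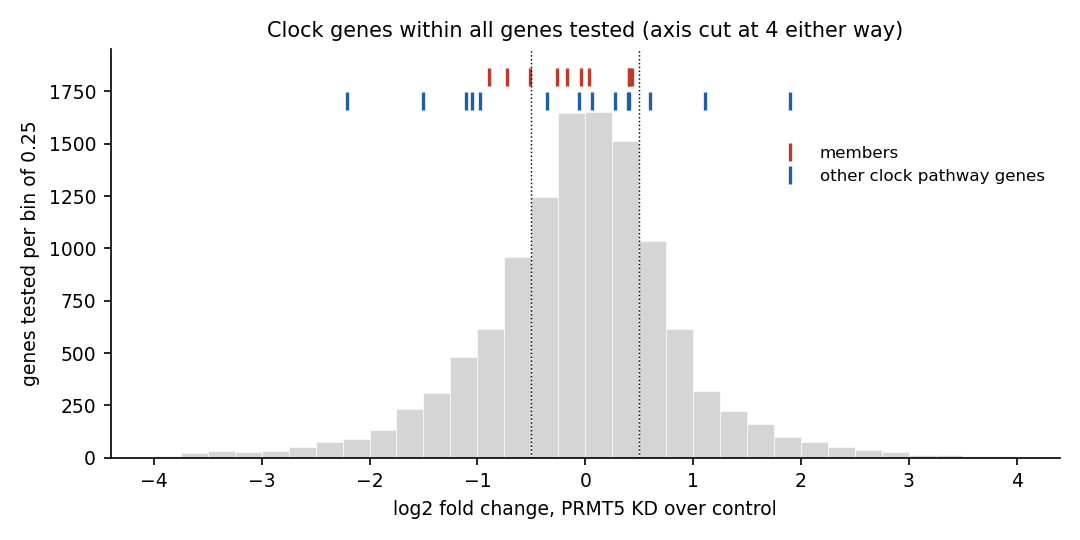
Number of genes tested per bin of 0.25 in log2 fold change of PRMT5 KD over control (grey bars, 11905 genes, 82 of them beyond the axis limit of 4), with red ticks for the 10 clock genes and blue ticks for the 14 tested pathway genes. The members sit within 1 unit of 0, and the blue ticks reach further in both directions.

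The genes were last grouped by the element that drives them, from general knowledge of the loop and not from the windows above. The E-box group held 12 genes, 8 of them members (PER1, PER2, PER3, CRY1, CRY2, NR1D1, NR1D2 and TEF) beside DBP, BHLHE40, BHLHE41 and CIART. None was called higher and 4 were called lower (PER3, DBP, BHLHE40 and BHLHE41), 5 lay above 0 and 7 below, and the median log2 fold change was -0.10. Those calls are 33.3% of the group, beside 45.5% of all genes called and 24.3% called lower. Log2 fold changes in this group ran from -2.21 for DBP to 0.44 for CRY2. The ROR-element group held ARNTL, CLOCK, NPAS2, NFIL3 and CRY1, of which 4 were tested. All 4 lay below 0, beside 6018 of the 11905 genes tested, with a median of -0.62. CLOCK and NFIL3 were called lower, beside 24.3% of all genes, and ARNTL and CRY1 were not called. CRY1 belongs to both groups and had a log2 fold change above 0 under 5 of the 14 alternative fits, total counts alone among them (0.14).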

How the data were processed

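Gene-level RNA-seq tables of 4 UMSCC74B libraries were used, 2 control and 2 PRMT5 KD, grouped by their titles. The authors deposited estimated counts per gene symbol, made from aligned reads and not normalized. The submitters' processing notes name FastQC, Trim Galore, STAR, Salmon, DESeq2 and GRCh38, without roles, whereas the study's methods describe FeatureCounts on Gencode genes. Of 29744 entries per table, 28 whose names had become dates were left out. Names were matched to GENCODE 44 (21877 by current symbol, 1149 by RefSeq gene number, 1577 by a unique older symbol). Counts were rounded, and protein-coding genes with at least 0.5 RPKM in every library of a group were tested. The test was the quasi-likelihood F test of edgeR 4.0.16 (R 4.3.3, TMM, robust dispersion) with Benjamini-Hochberg adjustment (FDR). The F statistic gave the standard errors, and each interval is for its gene alone. TMM factors were 0.946 and 0.934 in control and 1.04 and 1.09 with the PRMT5 KD label. Relative to total counts alone, they lowered fold changes of PRMT5 KD over control. The procedure was tested on simulated data in which few genes changed, equally in both directions. That test does not bear on the choice of scaling. The alternatives were DESeq2 1.42.0, other scalings, filters and gene sets, non-robust dispersion, a replicate block, leaving out each library, and offsets for exon length and GC from splines of 4 degrees of freedom. The members and lists were chosen with earlier results of these data known, and the lists come from general knowledge. Of the pathway genes first listed, 2 are not reported here and enter no count of that list. Named are the 10 members, PRMT5, genes with a symbol that overlap members, paralogs of members and called pathway genes. The remaining pathway genes and markers were named after their values were seen. Sequences are from RefSeq.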

Additional observations from a re-analysis of the deposited data

How the results depend on the processing

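The number of genes called (5417) lay between 5029 and 6180 over the alternative tests, scalings, filters and corrections, and between 3104 (without control replicate 2) and 5708 with a library left out. It was 2560 at a log2 threshold of 1, which calls no member (0). Total counts alone moved the median of all genes from -0.01 to 0.17 and the calls from 2522 higher and 2895 lower to 3507 and 2200. That scaling called 5 members, CLOCK, PER3, CRY2, NR1D1 and NR1D2, the last 3 of them higher. The members called numbered 2 or 3 under the other settings with all libraries, and 1 to 4 with a library left out. The called pathway genes numbered 7 to 9 over the alternative fits, and they were not counted at the log2 threshold of 1. PRMT5 ranged from 0.57 to 0.78 with a library left out. The sign was reversed, without a call, for PER1 (0.0064 with total counts alone, 0.067 with the length and GC correction, 0.064 with the replicate block added), PER2 (-0.041 to 0.11 with a library left out), and CRY1 (0.14 with total counts alone, 0.024 with filterByExpr, 0.014 with no filter, -0.17 to 0.10 with a library left out, above 0 without control replicate 1 or PRMT5 KD replicate 2). It was also reversed for RORA (-0.18 to 0.31 with a library left out) and FBXW11 (0.12 with total counts alone, 0.0078 with filterByExpr, -0.15 to 0.068 with a library left out). The causes were not tested. The same-numbered deviations had a correlation of -0.10 across genes. The replicate block gave 5184 calls and changed no member's call, and the crossed pairing, chosen after seeing the data, gave 5484. With 2 libraries per group, a change under 0.5 was often within the interval.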
